A study of Mus musculus with 12 samples.

Results

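Imprinted genes are transcribed mainly from the maternal or mainly from the paternal copy, and most lie in clusters that share a control region. Their RNA was measured here in mouse embryonic stem (ES) cells, pluripotent cells grown from the early embryo, which were left undifferentiated or exposed to retinoic acid for 3 days. The 45 genes were listed by symbol, in 12 named clusters and as 5 genes outside them, and every array probe carrying one of these symbols was taken. Probes were matched for 44 of the 45 genes, 94 of the 41174 probes on the array; Rtl1 was not analysed here. Of these, 81 probes of 43 genes were bright enough to test, and the only probe of Dio3 was not. RNA of 3 undifferentiated and 3 retinoic acid samples was hybridised to 1-colour Cy3 arrays, each sample on 2 technical arrays whose values were averaged. The 2 groups share everything else that the labels state; the ES line, strain, culture medium and any feeder layer are not given in the sources used here. All values below are log2 of the normalized net intensity plus 50, changes are retinoic acid minus undifferentiated on that scale, and a probe was called at an adjusted p under 0.05 in limma, adjusted over all 26587 probes tested.

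In most clusters a differentially methylated control region, marked in the germ line, decides which copy is active. Some of these regions block an enhancer from reaching a promoter on one copy, as between Igf2 and H19, and others drive a long noncoding RNA that silences its neighbours in cis, such as Airn and Kcnq1ot1. Many paternally expressed members promote fetal growth and many maternally expressed members restrain it, and the genes are known for their activity in embryo, placenta and brain. The arrays measured total RNA of a gene and did not separate the parental copies.

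Imprinted genes rose more often than they fell. Of the 81 probes tested, 32 (39.5%) were higher after retinoic acid, where 14.0% of all probes tested were, and 3 (3.70%) were lower, where 11.5% of all probes were; 46 were not called. By gene, 24 had a probe that rose, 2 (Snrpn and Mcts2) had a probe that fell, 17 had none called, and 0 had probes called in both directions. At an unadjusted p under 0.05 the probes numbered 37 higher and 3 lower. The median change of the 81 probes was 0.40, against -0.05 over all probes tested. The values of the 2 groups did not overlap in 41 of the 81 (50.6%), against 42.4% of all probes. Of the 81 probes, 7 passed the brightness filter through the retinoic acid arrays alone, 2 of them called higher, and 2 through the undifferentiated arrays alone. These shares describe the list and were not put to a test. With each array scaled to its 75th percentile or its median, 30 member probes were higher and 3 lower, the median of all probes was -0.12 or -0.09, and higher probes made up 46.6% or 49.9% of all calls instead of 55.0%.

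**Figure D1:**
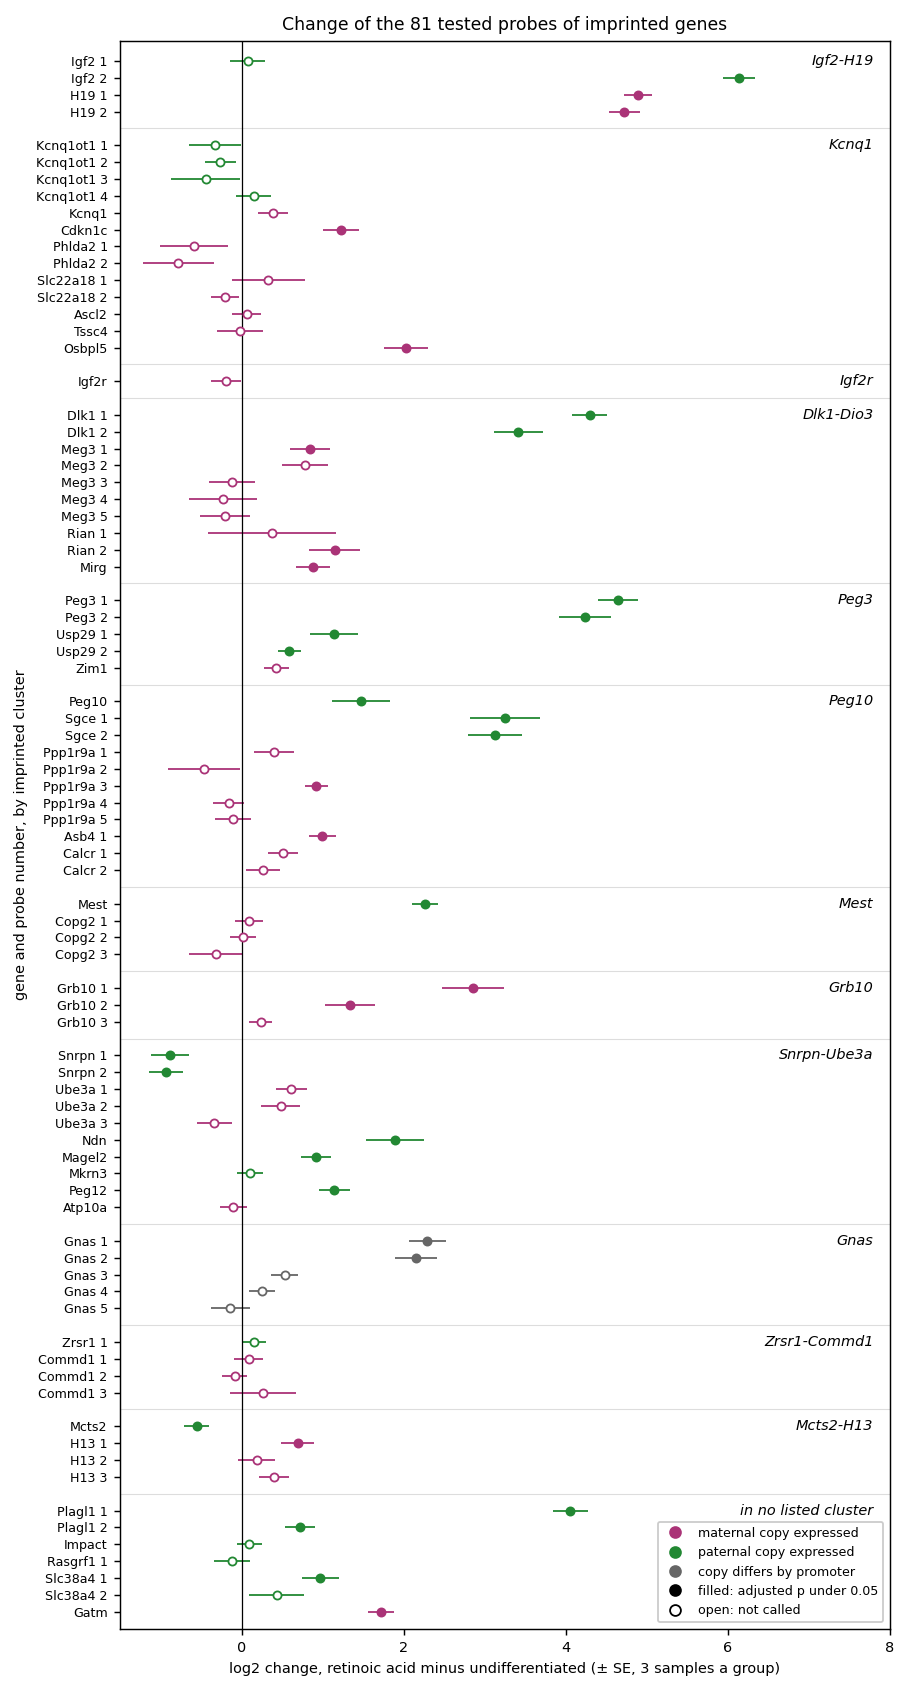
Log2 change (retinoic acid minus undifferentiated, ± SE, 3 samples a group) of the 81 tested probes, by cluster and coloured by the copy known to be expressed; filled points were called at an adjusted p under 0.05. The changes run from -0.94 (Snrpn probe 2) to 6.14 (Igf2 probe 2), and 35 points are filled.

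The copy that a gene is known to express went with different counts. Of 30 probes of paternally expressed genes 17 (56.7%) were higher and 3 (10%) lower, with a median change of 0.81. The 3 lower probes were of Snrpn and Mcts2. In limma, 13 (28.3%) of 46 probes of maternally expressed genes were higher and 0 lower, with a median of 0.29. At an unadjusted p under 0.05 the maternal counts were 17 and 0. Over all probes tested, 14.0% were higher and 11.5% lower. Gnas, whose expressed copy depends on the promoter, had 2 of 5 probes higher. Probes of one gene are not independent, and the difference between the copies was not tested. The grouping uses the copy known for each gene, and which copy was active in these cells was not measured.

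**Figure D2:**
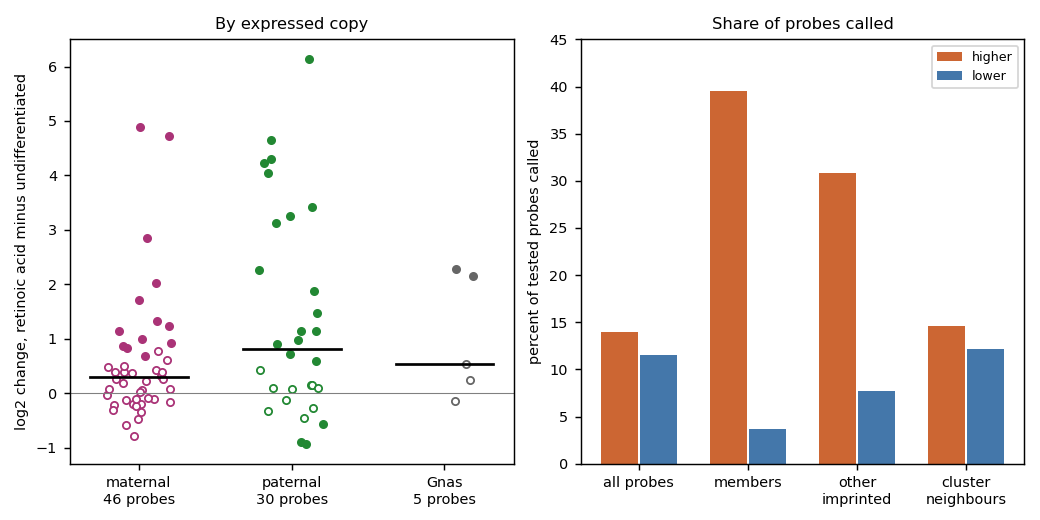
Left, log2 change of each tested member probe by expressed copy, with medians as black lines (0.29 for maternal, 0.81 for paternal, 0.53 for Gnas) and called probes filled. Right, percent of tested probes called higher or lower among all probes (14.0 and 11.5), the imprinted members (39.5 and 3.70), other imprinted genes (30.8 and 7.69) and neighbouring genes not known as imprinted (14.6 and 12.2).

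The promoters of several members carry the letters TGCCGC, which ZFP57, a zinc finger protein that keeps methylation at imprinted control regions, binds when methylated. In RefSeq (GRCm38.p6) 38 of the members had 59 promoter windows, each of 250 bases before to 50 after a transcription start. The letters, on either strand, stood in 13 of these windows (22.0%) and in 3813 of all 32851 windows (11.6%). The median number of CG pairs was 15 against 7. Windows can overlap, as those of Mest that hold the letters do. The letters contain a CG pair themselves, and windows of equal CG content were not compared. The 12 genes with such a window included 6 with a probe that rose (Grb10, Igf2, Meg3, Mest, Osbpl5 and Plagl1), 2 with a probe that fell (Mcts2 and Snrpn) and 4 with none called (Calcr, Commd1, Copg2 and Zim1). Of the 26 genes whose windows lacked the letters, 14 had a probe that rose and 0 one that fell. Among all probes tested 14.0% were higher and 11.5% lower, shares by probe and not by gene. The lower calls of Mcts2 and Snrpn were all lost without retinoic acid replicate 1. Genes with and without the letters were not compared in a test. A match is only a match of letters, and methylation was not measured. The stretches around it are shown for 3 genes that rose and for Snrpn, which fell, from 110 bases before the start to 10 after it, 5′ to 3′ on the gene's strand, with TGCCGC or its reverse complement in capitals. Plagl1 lies at chr10:13090722-13090841 (plus strand), Mest at chr6:30737940-30738059 (plus), Osbpl5 at chr7:143740351-143740470 (minus) and Snrpn at chr7:60005190-60005309 (minus).
Plagl1: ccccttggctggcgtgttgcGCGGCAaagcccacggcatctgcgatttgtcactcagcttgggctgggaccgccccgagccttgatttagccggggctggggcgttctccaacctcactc
Mest: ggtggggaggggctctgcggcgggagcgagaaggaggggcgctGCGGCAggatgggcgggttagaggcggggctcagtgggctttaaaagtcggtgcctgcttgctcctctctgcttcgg
Osbpl5: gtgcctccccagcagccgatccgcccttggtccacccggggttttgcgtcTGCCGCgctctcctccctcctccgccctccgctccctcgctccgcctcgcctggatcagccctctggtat
Snrpn: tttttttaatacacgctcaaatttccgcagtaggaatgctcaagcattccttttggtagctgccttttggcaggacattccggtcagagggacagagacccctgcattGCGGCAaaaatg

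At the Igf2-H19 cluster, H19 rose steeply, and of the 2 probes of Igf2 1 rose and 1 was not called. H19, the maternally expressed noncoding RNA, was at 8.09, 8.06 and 8.35 in the 3 undifferentiated samples and at 12.89, 13.27 and 13.01 after retinoic acid on its brighter probe. The groups lay far apart, with a change of 4.89 ± 0.17 (SE), 29.7-fold, and an adjusted p of 7.6e-06. The second H19 probe went from 7.89, 7.44 and 7.997 to 12.34, 12.60 and 12.57 (4.72 ± 0.19).

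Igf2 encodes the fetal growth factor expressed from the paternal copy. Its brighter probe was already near the top of the scale in every undifferentiated sample (13.88, 14.38 and 14.47) and stayed there after retinoic acid (14.10, 14.58 and 14.26), so that the groups overlapped. The change of 0.07 ± 0.22 (SE) was not called (adjusted p = 0.84), and it was -0.33 with 75th percentile and -0.30 with median scaling, again not called. The second probe, A_51_P516833, which the files assign to the same transcript, was at 7.43, 7.24 and 6.78 before and at 13.18, 13.35 and 13.36 after. Its rise of 6.14 ± 0.20 (SE), 70.7-fold, was the largest among the members (adjusted p = 6.0e-06). The files give no probe sequences, so which part of Igf2 each probe reads is not known here, and no direction is given for total Igf2 RNA.

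At the Igf2r cluster a noncoding RNA rose beside a coding gene that was not called. Airn, transcribed from the paternal copy across Igf2r in the antisense direction, belongs to a second list of 33 imprinted genes outside the 45. Its probes 1 and 3 exceeded background on 6 of 6 retinoic acid arrays and on 0 of 6 undifferentiated ones. By the lower bound, the brighter group's mean over the lowest detectable signal, these were at least 13.7-fold and at least 10.2-fold higher (adjusted p = 7.0e-05 and 0.00023). Probe 2 of Airn went from 5.90, 5.92 and 6.53 to 7.46, 8.51 and 7.25 (1.62 ± 0.35, adjusted p = 0.012; 1.52 and 0.052 without undifferentiated replicate 1, 1.42 and 0.052 on technical array 2 alone, and 0.074 with all 12 arrays and the sample as a random block). Igf2r, the maternally expressed receptor that carries IGF2 to lysosomes, was at 11.52, 11.90 and 11.42 and then at 11.60, 11.35 and 11.31. The groups overlapped, and the change of -0.19 ± 0.18 (SE) was not called (adjusted p = 0.50).

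**Figure D3:**
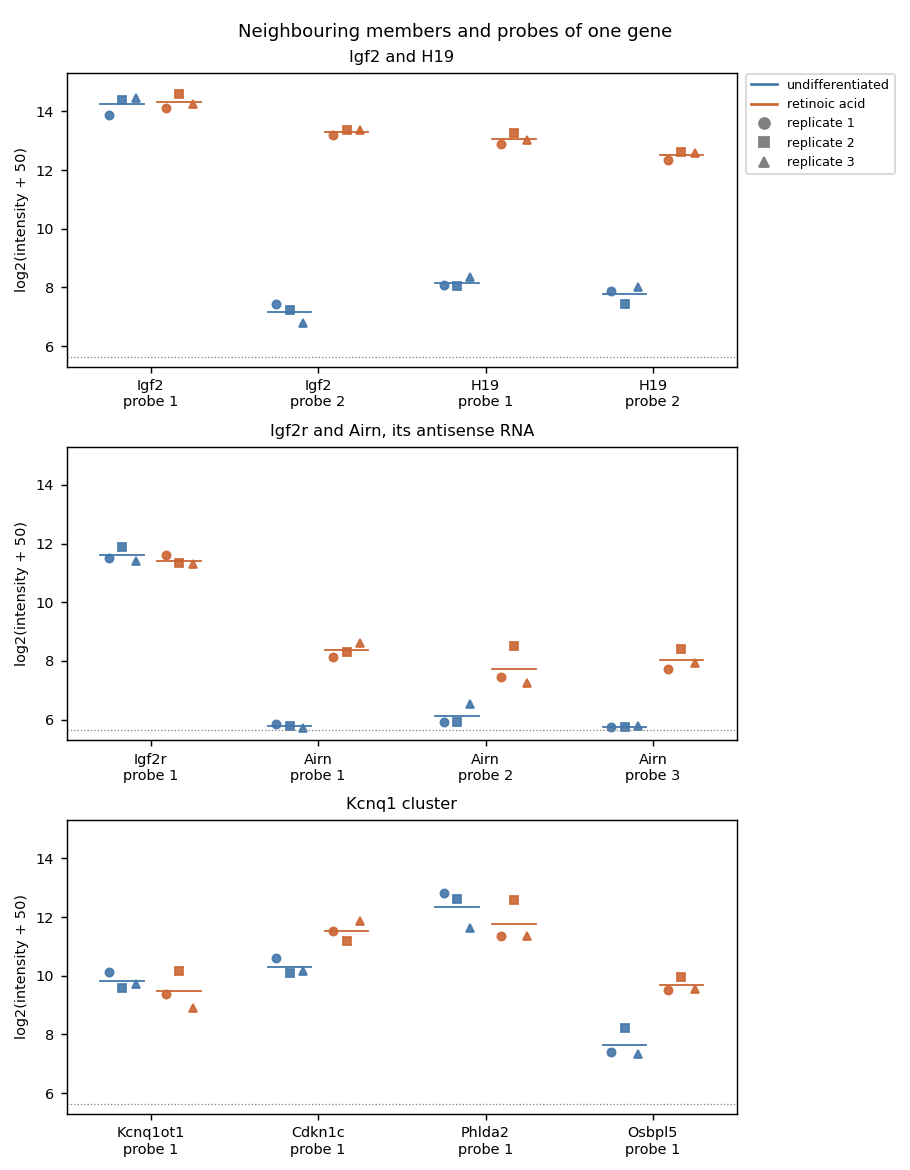
Log2(intensity + 50) of each sample (circles, squares and triangles are replicates 1, 2 and 3; lines are means of 3) for Igf2 and H19, Igf2r and Airn, and 4 genes of the Kcnq1 cluster; the dotted line is an intensity of 0. Igf2 probe 1 stays between 13.88 and 14.58 while Igf2 probe 2 and both H19 probes rise, and Airn rises while the Igf2r groups overlap.

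At the Kcnq1 cluster 2 of 8 genes rose and 0 fell in limma (0 also at an unadjusted p under 0.05). By probe, 2 of 13 (15.4%) were higher, near the 14.0% of all probes. Osbpl5, a lipid transfer protein of the oxysterol-binding family, went from 7.40, 8.23 and 7.32 to 9.53, 9.97 and 9.54 (2.03 ± 0.27 SE, 4.07-fold, adjusted p = 0.0016). Cdkn1c, an inhibitor of cyclin-dependent kinases that restrains fetal growth, went from 10.61, 10.11 and 10.18 to 11.52, 11.20 and 11.86 (1.23 ± 0.22, adjusted p = 0.0062). In neither gene did the groups overlap.

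Kcnq1ot1, the paternally expressed antisense RNA that silences this cluster in cis, was not called on any of its 4 tested probes, whose changes ran from -0.45 to 0.14. Its brightest probe was at 10.14, 9.59 and 9.71 before and at 9.39, 10.15 and 8.90 after. Phlda2, which limits placental growth, varied more between samples than between groups: its brighter probe was at 12.82, 12.63 and 11.62, and then at 11.36, 12.57 and 11.36. Both Phlda2 probes were high in the same 3 samples, undifferentiated replicates 1 and 2 and retinoic acid replicate 2. Without the last of these, the second probe was called lower (-1.24, adjusted p = 0.048), against -0.79 with all samples. Slc22a18, a transporter, was highest in replicate 2 of both groups on its brighter probe (9.46 in each), with the other 4 samples from 7.78 to 8.60. Kcnq1, a potassium channel subunit (0.39), Ascl2, a transcription factor of trophoblast (0.06), and Tssc4 (-0.02) were not called; Kcnq1 was called without undifferentiated replicate 2 (0.56, adjusted p = 0.035).

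At the Dlk1-Dio3 cluster the coding gene Dlk1 rose strongly, and the maternally expressed RNAs rose less and not on every probe. Dlk1, a membrane protein related to Notch ligands and expressed from the paternal copy, went from 7.74, 7.99 and 7.32 to 12.06, 11.71 and 12.17. The change was 4.29 ± 0.22 (SE), 19.6-fold, with an adjusted p of 2.7e-05. On its second probe it went from 8.50, 7.63 and 8.18 to 11.68, 10.99 and 11.89 (3.42 ± 0.30, adjusted p = 0.00024).

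Mirg, a host transcript of microRNAs, rose from 10.28, 9.998 and 9.55 to 10.89, 10.68 and 10.88 (0.87 ± 0.21 SE, adjusted p = 0.020; 0.076 and 0.079 without retinoic acid replicate 1 or 3). Rian, the host of small nucleolar RNAs, went from 8.11, 7.18 and 6.85 to 8.67, 8.30 and 8.60 on its second probe (1.15 ± 0.32, adjusted p = 0.034). That call was lost when undifferentiated replicate 2 or 3 or any retinoic acid sample was left out (change 0.88 to 1.26, adjusted p 0.055 to 0.11), and with no filter (0.066). Its brighter probe was not called (0.38 ± 0.79, adjusted p = 0.78). There undifferentiated replicate 3 stood at 9.96, above every other sample, while replicates 1 and 2 were at 7.40 and 7.02 and the retinoic acid samples at 9.49, 7.58 and 8.43. Without undifferentiated replicate 3 its change was 1.29 (adjusted p = 0.12).

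The 5 probes of Meg3, a long noncoding RNA, fell into a bright pair and a dimmer set of 3. The brightest went from 11.38, 11.66 and 12.30 to 12.70, 12.70 and 12.46 and was just called (0.84 ± 0.25 SE, adjusted p = 0.042). The second went from 10.69, 10.93 and 11.84 to 11.97, 11.87 and 11.96 and was not (0.78 ± 0.29, adjusted p = 0.087). The other 3 changed by -0.12 to -0.23 and were not called. On all 5 probes undifferentiated replicate 3 was the highest of its group, and without it the bright pair changed by 1.10 and 1.12 (adjusted p = 0.0062 and 0.0040). The call of the brightest probe was lost without any one of the other 5 samples (change 0.64 to 0.92, adjusted p 0.086 to 0.13) and with 75th percentile or median scaling (0.50 and 0.53). It was also lost with 1 or 10 added in place of 50, with no filter and on technical array 2 alone (adjusted p 0.050 to 0.069). Dio3, which inactivates thyroid hormone, was above background on 3 of 6 undifferentiated and 2 of 6 retinoic acid arrays and was not tested.

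**Figure D4:**
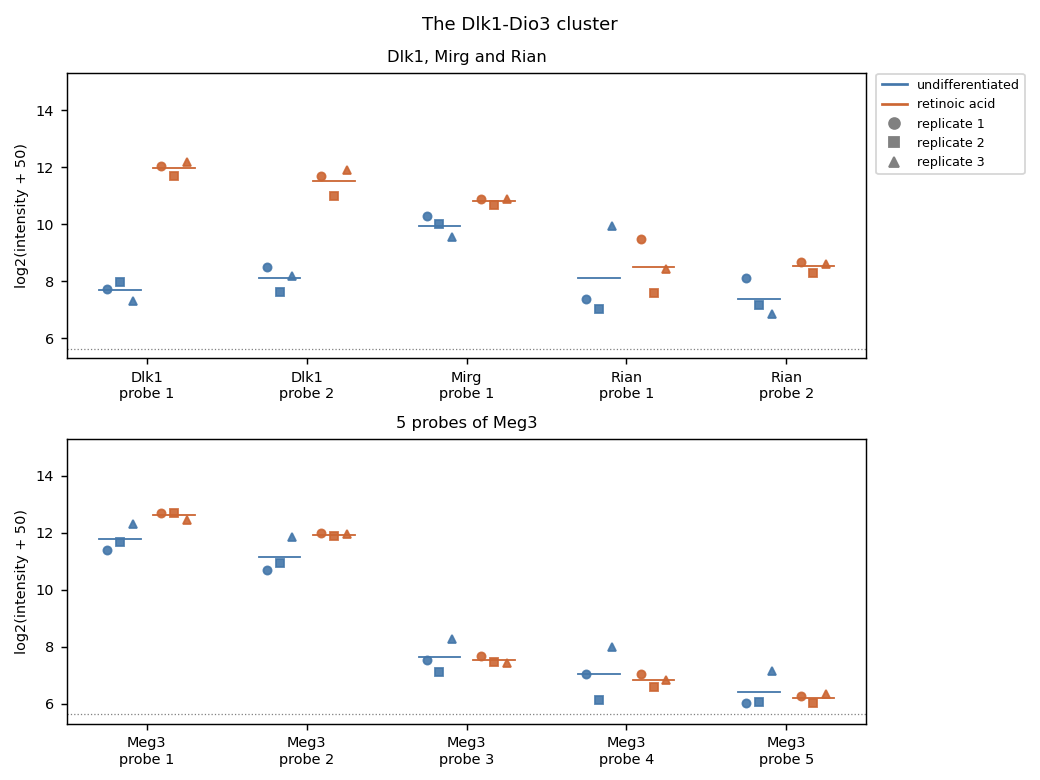
Log2(intensity + 50) of each sample for Dlk1, Mirg and Rian (top) and for 5 probes of Meg3 (bottom); lines are means of 3 samples and the dotted line is an intensity of 0. Dlk1 separates widely on both probes, and undifferentiated replicate 3 (blue triangle) is the highest undifferentiated sample on each Meg3 probe and on Rian probe 1.

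Peg3 and Usp29, paternally expressed neighbours that are transcribed away from each other, both rose. Peg3, a zinc finger protein, went from 9.51, 8.97 and 9.75 to 13.78, 14.33 and 14.06 on its brightest probe. This was a change of 4.64 ± 0.24 (SE), 25.0-fold, with an adjusted p of 3.0e-05, and the groups were far apart. The second probe went from 8.08, 7.13 and 8.11 to 11.96, 11.64 and 12.43 (4.24 ± 0.32), and another was too dim to test.

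Usp29, a ubiquitin-specific protease, was dim: its brighter probe went from 6.23, 6.01 and 6.43 to 7.77, 6.69 and 7.62 (1.14 ± 0.29 SE, adjusted p = 0.026). Its second probe, above background on 2 of 6 undifferentiated arrays, went from 5.90, 6.07 and 5.95 to 6.47, 6.67 and 6.54 (0.59 ± 0.15, adjusted p = 0.023). The added 50 compresses changes this close to background; with 1 added instead, these were 2.18 and 1.76. Leaving out 1 sample lost the first call in 4 of 6 cases (undifferentiated replicates 1 and 2 and retinoic acid replicates 1 and 3, change 0.94 to 1.14, adjusted p 0.061 to 0.10), as did testing with no filter (0.0502). It lost the second in 4 of 6 as well (undifferentiated replicate 1 and each retinoic acid sample, 0.53 to 0.63, adjusted p 0.066 to 0.087). Zim1, a maternally expressed zinc finger gene of the cluster, went from 5.93, 5.85 and 6.02 to 6.20, 6.54 and 6.35; the groups did not overlap, but it was not called (0.43 ± 0.16, adjusted p = 0.086; called with 1 added, 1.56, adjusted p = 0.0083). The RefSeq promoter windows of Peg3 and Usp29 share 263 of their 300 bases, which is why the 96 bases that lie between the spans of the 2 genes in the RefSeq gene table are shown, chr7:6730463-6730558 (GRCm38.p6, plus strand, the direction of Usp29), with CG pairs in capitals.
between Peg3 and Usp29: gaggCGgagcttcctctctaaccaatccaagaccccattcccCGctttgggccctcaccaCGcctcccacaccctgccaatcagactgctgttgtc

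At the Peg10 cluster the paternally expressed pair Sgce and Peg10 rose, and of the 3 maternally expressed genes Asb4 and Ppp1r9a rose on 1 probe each and Calcr was not called. Sgce, epsilon-sarcoglycan, went from 9.32, 10.89 and 9.16 to 12.91, 13.28 and 12.93 (3.25 ± 0.43 SE, 9.51-fold, adjusted p = 0.0015). Undifferentiated replicate 2 was the highest of its group, on the second probe too, which went from 7.92, 8.92 and 7.61 to 11.01, 11.27 and 11.54 (3.12 ± 0.33). Peg10, a gene derived from a retrotransposon and needed for the placenta, went from 8.72, 8.34 and 9.59 to 10.69, 9.82 and 10.54 (1.47 ± 0.36, adjusted p = 0.021). The Peg10 groups came within a small gap of each other, and dropping undifferentiated replicate 1, or either of retinoic acid replicates 1 and 3, ended the call (1.30 to 1.39, adjusted p 0.075 to 0.079).

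Asb4, an ankyrin repeat protein, rose from 6.41, 6.83 and 6.62 to 7.58, 7.72 and 7.53 (0.99 ± 0.17 SE, adjusted p = 0.0043), and its second probe was too dim to test. Ppp1r9a, the synaptic scaffold neurabin, rose on 1 of 5 tested probes, from 7.36, 7.30 and 7.46 to 8.21, 8.31 and 8.36 (0.92 ± 0.14, adjusted p = 0.0032). Its brightest probe, at 10.09, 10.71 and 10.17 and then 10.71, 11.08 and 10.38, overlapped between groups (0.40, adjusted p = 0.28), and the other 3 tested probes changed by -0.11 to -0.47. One of these 3, probe 2, was called lower without undifferentiated replicate 2 (-1.06, adjusted p = 0.0032; -0.47 with all samples), so the probes of Ppp1r9a give no single direction. Calcr, the calcitonin receptor, was at 6.85, 6.60 and 6.49 and then at 7.06, 7.42 and 6.97, without overlap and not called (0.51 ± 0.18, adjusted p = 0.085).

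Mest rose while its neighbour Copg2 was not called. Mest, a paternally expressed hydrolase-like protein whose promoter lies in the germ line control region, was bright in undifferentiated cells (12.40, 12.33 and 12.62) and brighter after retinoic acid (14.74, 14.85 and 14.54). The groups did not overlap, and the change was 2.26 ± 0.16 (SE), 4.80-fold, with an adjusted p of 9.5e-05. Copg2, a coat protein subunit of transport vesicles, was at 10.99, 11.44 and 11.13 and then at 11.31, 11.36 and 11.14 (0.09 ± 0.17, adjusted p = 0.77; -0.18 with 75th percentile scaling). Its other probes, at 0.02 and -0.31, were not called.

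Grb10, an adaptor that dampens insulin and IGF receptor signalling, rose on 2 of 3 probes. The brightest went from 9.68, 10.59 and 8.97 to 12.34, 12.80 and 12.68 (2.86 ± 0.38 SE, 7.24-fold, adjusted p = 0.0015), with undifferentiated replicate 2 again the highest of its group. The second went from 6.75, 6.87 and 6.11 to 7.52, 8.50 and 7.71 (1.33 ± 0.31, adjusted p = 0.017). The third, close to background at 6.21, 6.22 and 6.19 and then 6.54, 6.38 and 6.39, did not overlap and was not called (0.23, adjusted p = 0.27).

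The Snrpn-Ube3a cluster moved in both directions. Snrpn, a paternally expressed protein of the spliceosome, fell on both probes. The first went from 12.21, 11.42 and 11.46 to 10.84, 10.67 and 10.92, a change of -0.88 ± 0.23 (SE; adjusted p = 0.029), or 1.85-fold lower. The second went from 11.53, 11.04 and 11.17 to 10.10, 10.22 and 10.62 (-0.94 ± 0.21, adjusted p = 0.014). The groups did not overlap on either probe. Undifferentiated replicate 1 was the highest sample on both, and without it the changes were -0.63 (adjusted p = 0.052) and -0.80 (0.0499, still called). Leaving out retinoic acid replicate 1, 2 or 3 lost the first call (-0.82 to -0.94, adjusted p 0.077 to 0.085), and leaving out retinoic acid replicate 1 lost the second (-0.83, adjusted p = 0.062).

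Other paternally expressed genes of the same cluster rose. Ndn, the growth-restraining protein necdin, went from 7.68, 7.41 and 7.69 to 9.77, 8.60 and 10.07 (1.89 ± 0.36 SE, adjusted p = 0.0075), with retinoic acid replicate 2 the lowest of its group. Peg12 went from 7.86, 7.89 and 8.39 to 9.36, 9.05 and 9.17 (1.14 ± 0.19, adjusted p = 0.0046). Magel2, related to Ndn, went from 6.35, 6.92 and 6.50 to 7.55, 7.44 and 7.52 (0.91 ± 0.18, adjusted p = 0.0099); this call was lost on technical array 2 alone (0.81, adjusted p = 0.11) and with all 12 arrays and the sample as a random block (adjusted p = 0.28). Mkrn3, a makorin ring finger protein, was at 8.05, 8.39 and 8.18 and then at 8.28, 8.47 and 8.18, so that the groups overlapped (0.10, adjusted p = 0.70). So the paternally expressed genes of this cluster gave 1 gene that fell, 3 that rose and 1 that was not called.

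The maternally expressed genes of the cluster were not called. Ube3a, a ubiquitin ligase, was at 12.03, 11.53 and 11.54 and then at 12.17, 12.30 and 12.46 on its brightest probe, without overlap and just outside the threshold (0.61 ± 0.19 SE, adjusted p = 0.051). Its other probes changed by 0.48 and -0.34. Without undifferentiated replicate 1 the first 2 probes were called higher (0.77 and 0.75, adjusted p = 0.030 and 0.031). Atp10a, a phospholipid flippase, changed by -0.10.

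At Gnas, which encodes the alpha subunit of the stimulatory G protein and alternative products of imprinted promoters, the 2 bright probes rose. The first went from 10.66, 10.12 and 10.43 to 12.36, 12.66 and 13.06 (2.29 ± 0.23 SE, 4.90-fold, adjusted p = 0.00041) and the second from 9.74, 9.02 and 9.39 to 11.23, 11.38 and 11.97 (2.15 ± 0.26, adjusted p = 0.00096). The other 3 tested probes lay near background. Probe 3, at 6.08, 6.15 and 6.33 and then 6.86, 6.79 and 6.50, did not overlap and missed the threshold (0.53 ± 0.17, adjusted p = 0.052; 1.26 and 0.018 with 1 added). The other 2 changed by 0.25 and -0.14, and 3 more probes were too dim to test. Which Gnas promoter each probe reports was not tested.

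Plagl1, a paternally expressed zinc finger factor, had the largest rise among the 5 genes outside the named clusters. Its brighter probe went from 9.27, 8.83 and 9.53 to 13.32, 13.05 and 13.42 (4.05 ± 0.22 SE, 16.6-fold, adjusted p = 3.0e-05). The second, dim probe went from 5.98, 6.36 and 6.07 to 6.65, 6.79 and 7.13 (0.72 ± 0.19, adjusted p = 0.028; 1.69 with 1 added). Its call ended when undifferentiated replicate 1, undifferentiated replicate 3 or either of retinoic acid replicates 2 and 3 was dropped (0.58 to 0.75, adjusted p 0.057 to 0.12).

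Gatm, an enzyme of creatine synthesis, rose from 6.48, 6.27 and 6.30 to 7.90, 8.20 and 8.11 (1.72 ± 0.16 SE, adjusted p = 0.00027). Slc38a4, an amino acid transporter, rose on its brighter probe from 11.71, 12.10 and 11.72 to 12.70, 13.23 and 12.52 (0.97 ± 0.23, adjusted p = 0.017). Leaving out undifferentiated replicate 1 ended that call (0.91, adjusted p = 0.064), as did 75th percentile or median scaling (0.62 and 0.66, adjusted p = 0.12 and 0.14). On its second probe, at 8.54, 7.31 and 8.50 and then 8.59, 8.23 and 8.82, the groups overlapped (0.43, adjusted p = 0.41). Impact, a regulator of translation, stayed between 12.21 and 12.56 in the 6 samples (0.09, adjusted p = 0.72), and Rasgrf1, an activator of Ras, was not called on its only tested probe (-0.12).

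At the pairs of a retrocopy and its host gene, Mcts2 fell and its host H13, a signal peptide peptidase, rose on 1 of 3 probes. Mcts2 went from 11.87, 12.03 and 11.80 to 11.29, 11.25 and 11.50 (-0.55 ± 0.15 SE, adjusted p = 0.034), without overlap. Its call was lost without any one sample other than undifferentiated replicate 3 (-0.49 to -0.63, adjusted p 0.061 to 0.13). H13 went from 9.18, 9.17 and 8.78 to 9.58, 9.56 and 10.06 on its brightest probe (0.69 ± 0.20, adjusted p = 0.042), a call lost without any one sample other than undifferentiated replicate 2 (0.53 to 0.78, adjusted p 0.057 to 0.15). Both calls were also lost with 1 or 10 added in place of 50 (adjusted p 0.077 and 0.066 for Mcts2, 0.065 and 0.056 for H13). That of Mcts2 was lost on technical array 1 alone (0.053), and that of H13 with no filter (0.056) or a robust variance trend (0.0502). The other H13 probes were at 7.77, 7.71 and 6.99 and then 7.74, 7.70 and 7.57 (0.18), and at 6.98, 7.47 and 7.28 and then 7.71, 7.78 and 7.44 (0.40); neither was called. Zrsr1, a retrocopy of a splicing factor gene, changed by 0.15, and the 3 probes of its host Commd1 by -0.09 to 0.26; none was called. Whether the Mcts2 and Zrsr1 probes also read the genes these copies derive from was not tested.

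**Figure D5:**
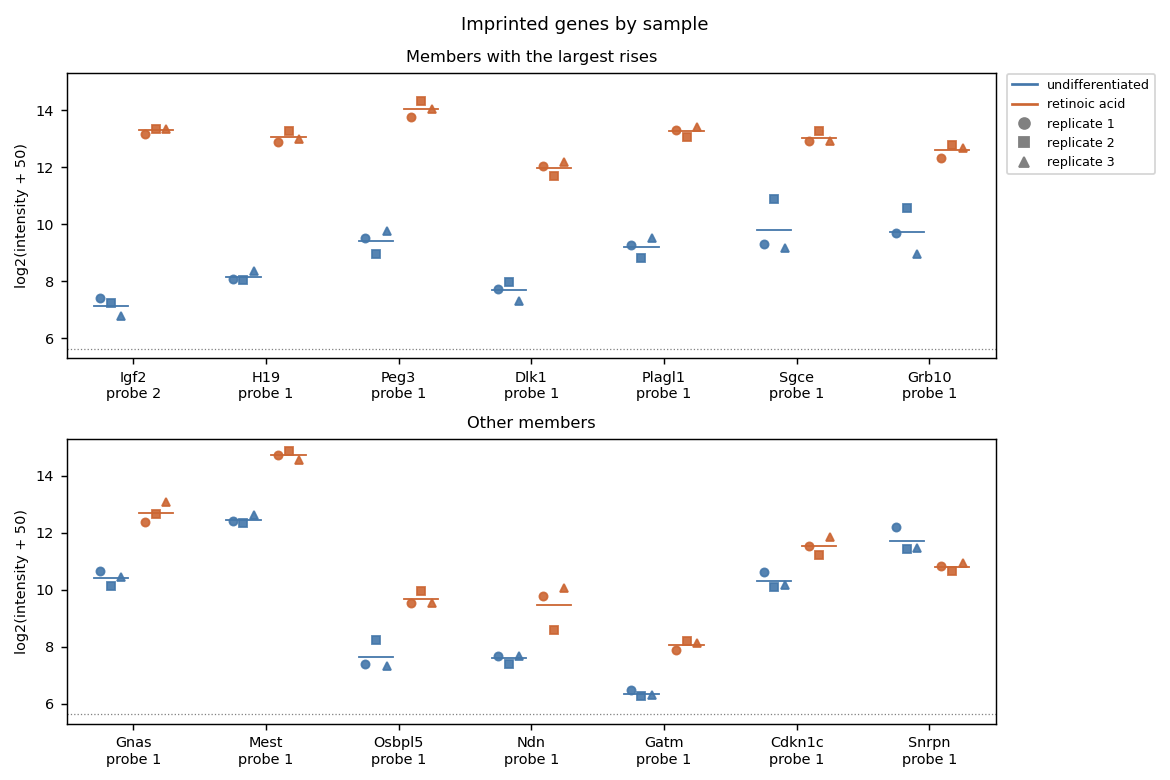
Log2(intensity + 50) of each sample for 7 members with large rises (top) and 7 other members (bottom); colours give the group, symbols the replicate, lines the means of 3, and the dotted line an intensity of 0. The groups separate for each probe shown, Snrpn in the opposite direction, and Sgce and Grb10 show undifferentiated replicate 2 (blue square) above its group.

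Probes of the same gene thus did not always share a call. Of 22 genes with at least 2 tested probes, calls differed in 8 (Igf2, Meg3, Rian, Ppp1r9a, Grb10, Gnas, H13 and Slc38a4), and in 6 the changes of the probes lay at least 1 apart. The widest gaps were 6.07 for Igf2, 3.34 for Plagl1 and 2.62 for Grb10.

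Other imprinted genes and neighbours of the clusters were counted the same way, and the lists were not tested against each other. Of 39 tested probes of 22 other imprinted genes, 12 (30.8%) were higher and 3 (7.69%) lower, against 14.0% and 11.5% of all probes. On the brightest probe of each gene these were 8 and 2, with a median of 0.30. Nnat, a paternally expressed membrane protein of the developing brain, went from 7.44, 6.99 and 7.55 to 12.02, 10.87 and 12.23 (4.38 ± 0.36 SE, adjusted p = 0.00016). Dcn, the matrix proteoglycan decorin, rose by 1.53, while Tspan32 (-1.12; -0.29 on a second probe, not called) and Sfmbt2 (-0.51; -0.08 on a second probe, not called) fell. The Sfmbt2 call was lost without undifferentiated replicate 1 or any retinoic acid sample (-0.49 to -0.52, adjusted p 0.071 to 0.11), and with 1 or 10 added (0.074 and 0.064).

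Of 44 tested genes that neighbour the clusters and are not known as imprinted, 9 were higher and 6 lower on the brightest probe, with a median of 0.07. By probe these were 12 (14.6%) and 10 (12.2%) of 82, near the 14.0% and 11.5% of all probes. Near Igf2-H19, Tnnt3 (2.46 ± 0.37 SE), a muscle troponin, and Lsp1 (1.95 ± 0.23), a leukocyte protein, rose. Id1 (2.08 ± 0.31), an inhibitor of helix-loop-helix factors and a neighbour of Mcts2-H13, rose too. Cobl (-3.28 ± 0.18), an actin nucleator next to Grb10, B3gnt2 (-1.72 ± 0.14), a glycosyltransferase near Commd1, and Pdk4 (-1.54 ± 0.19), a kinase of pyruvate metabolism near the Peg10 cluster, fell.

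Of 20 tested genes that maintain or erase imprints, 9 had a probe that fell and 1 a probe that rose; by probe, 10 of 33 (30.3%) were lower and 1 (3.03%) higher, against 11.5% and 14.0% of all probes. Dppa3 (Stella), which shields methylation in the early embryo, fell from 11.79, 11.47 and 11.30 to 7.38, 8.24 and 7.56 (-3.80 ± 0.26 SE, adjusted p = 7.5e-05). Zfp57 fell from 10.41, 9.77 and 12.22 to 8.08, 7.48 and 8.06 (-2.93 ± 0.57, adjusted p = 0.0081). Undifferentiated replicate 3, the highest of its group for Meg3 and for Rian probe 1, was the highest here too. On the brightest probe it was the highest of its group for most ES cell markers and the lowest for the rest. Tdgf1 was at 14.24 there and at 11.75 and 10.71 in replicates 1 and 2, and Pou5f1 at 13.98 against 12.68 and 11.97. Klf4 was at 13.94 against 12.42 and 12.85, and Zfp42 at 14.93 against 14.63 and 14.51. Smaller gaps were seen for Sox2 (12.97 against 12.80 and 12.57), Utf1 (10.97 against 10.85 and 8.56) and Dppa5a (15.39 against 15.36 and 15.38). Replicate 3 was the lowest for Esrrb probe 1 (13.54 against 13.68 and 13.61), Nr0b1 (13.17 against 13.28 and 13.49) and Dppa4 (12.69 against 12.77 and 12.92). Tet1, an enzyme that oxidises methylcytosine, fell by 2.67, and Tet3, of the same family, rose by 2.27 on its brighter probe and was at -0.06 on the second. Their part in the changes of the imprinted genes was not tested.

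Markers of other cell types moved between the same samples. In bulk RNA, more or fewer cells of a type and more or less RNA per cell cannot be told apart. All 10 tested ES cell markers were above background on every undifferentiated array on their brightest probe, and each had a probe that fell (12 of 13 probes, 92.3%, against 11.5% of all probes), among them Nr0b1 (-6.34), Tdgf1 (-5.83) and Esrrb (-4.86; -0.59 on a second probe). The mean log2 level of that list was 12.7 to 13.6 in undifferentiated and 9.30 to 9.57 in retinoic acid samples. Of 12 tested markers of feeder fibroblasts, on which ES cells are often cultured, 10 had a probe that rose. By probe, 12 of 19 (63.2%) were higher, against 14.0% of all probes. On the brightest probe of each gene 8 were higher, led by Tagln (5.25), Col1a2 (3.38) and Twist1 (2.71), and 1 was lower, Thy1 (-2.07). Acta2 (0.91), Col1a1 (-0.38) and S100a4 (-0.53) were not called on that probe. The mean level of the feeder list was 7.43 to 7.69 and then 8.72 to 8.91. Fap, Lum and Postn were too dim to test, and Postn was above background on no retinoic acid array. Of 13 extraembryonic endoderm markers 6 had a probe that rose (9 of 19 probes, 47.4%), led by Gata6 (4.11), Sox17 (3.78) and Col4a1 (2.67). On their brightest probes Lama1 (-0.52), Afp (-0.41), Amn (-0.37), Gata4 (-0.35), Foxa2 (-0.17), Hnf4a (-0.03) and Cubn (0.17) were not called. Mean levels of the endoderm list were 7.51 to 7.76 and then 8.56 to 8.74, and Ttr was above background on no array. Of 13 trophoblast markers 7 had a probe that rose (10 of 16 probes, 62.5%). The keratins Krt18 (4.78), Krt8 (4.65) and Krt7 (4.20) led these, and Tfap2c fell (-3.08). On their brightest probes Eomes (-0.47), Prl3d1 (-0.13), Ascl2 (0.06), Tfap2a (0.40) and Hand1 (0.43) were not called. Mean levels of the trophoblast list were 7.30 to 7.76 and then 8.72 to 9.03, and Elf5 was above background on no array. Dcn stands both in the feeder list and among the other imprinted genes, and Ascl2 both among the trophoblast markers and the 45. The part of these cell types in the changes of the imprinted genes was not tested.

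The labels call the samples biological replicates without saying whether they came from separate cultures. The p-values therefore set the difference between groups only against the spread among these samples. Technical arrays of one sample correlated at 0.990 to 0.998, and 53.8% to 85.0% of probes were above the background limit on the arrays. With 3 samples a group, the number of samples limits the precision.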

How the data were processed

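Total RNA of 6 samples (2 groups of 3, each sample on 2 technical arrays, 12 arrays in all) was amplified once and labelled with Cy3, per the labels' protocols. The deposited scanner files hold 1 net intensity (mean, linear scale) for every spot, per the file headers, so background had already been subtracted; the software, its method and the array's build are not given in the sources used here. The authors also deposited processed intensity, whose columns have nearly equal medians (56.9) and the same order of probes as the scanner files, as quantile normalization gives; it served as an alternative; R 2.15.0 and limma are named in the submitters' processing notes. The header of undifferentiated replicate 2, technical array 2, names the other technical array; its values differ from that array's, and it was kept.

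Here intensities were quantile-normalized over the 12 arrays, 50 was added and log2 taken, which understates changes of dim probes. Median net intensities of the arrays ran from 37.4 to 96.6. A probe was tested when it exceeded the 95th percentile of 27 negative control spots on at least 4 of 6 arrays of either group. Technical arrays were averaged, and each probe was tested with limma 3.58.1 in R 4.3.3 (lmFit and eBayes, two-sided, Benjamini-Hochberg over 26587 probes). No member probe exceeded 40000. The fit was also run on simulated data for this comparison (26587 probes, 10 runs). Of probes changed by 0.5, 1, 2 and 4 on the log2 scale, it recovered 0.60%, 29.0%, 79.8% and 97.2%. Of its calls there, 4.09% were false. Each run changed only a small part of the probes, far fewer than the 3725 higher and 3052 lower called in these data. The adjusted threshold was therefore stricter in the simulation, and its rates do not carry over. Small changes can still be missed here, at a rate that was not tested.

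The members, the other lists and the alternatives were chosen with earlier results of these data known. Values in every sample are given for called member probes with changes of at least 1. They are also given for some probes of one gene that disagree and some uncalled neighbours of called genes. The rest of these are given by their change only. Of the other lists, up to 3 called genes in each direction are named with their changes. Promoter windows are RefSeq's (GRCm38.p6). Alternatives were other scalings, offsets and filters, 1 probe a gene, single technical arrays, blocks, a robust variance trend, a threshold of 0.01, the authors' values and each sample left out. Plots were made in matplotlib 3.10.9 (Python 3.11.15).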

Additional observations from a re-analysis of the deposited data

How the results depend on the processing

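Over 21 alternatives the count of member probes called higher ran from 22 to 35 and no called member changed direction. Of the 32 higher calls 21 were kept under every alternative that could be run on them, and each of the 3 lower calls was lost under some. At an adjusted p under 0.01, 2121 probes of the array were higher and 1432 lower, with 22 member probes higher and 0 lower (3 at an unadjusted p under 0.05). With 1 probe a gene, 2871 genes were higher and 2081 lower, and 22 and 2 of the 43 member genes. Leaving out 1 sample gave 2365 to 4054 probes higher and 1608 to 3648 lower, and 24 to 30 member probes higher and 0 to 3 lower; 0 was without retinoic acid replicate 1, where 3 had an unadjusted p under 0.05, and 1 without undifferentiated replicate 1 or retinoic acid replicate 3. With the replicate number as a block, 3624 probes were higher and 3045 lower, and 30 and 2 member probes, the calls of Meg3 probe 1, H13 probe 1 and Mcts2 being lost; samples of the same number deviated with correlations of -0.05, 0.28 and 0.14, so the numbers were not taken as pairs. With 75th percentile or median scaling the calls of Meg3 probe 1 and Slc38a4 were lost, and the bright probes of Igf2, Copg2, Zrsr1, Commd1 and Impact had negative changes that were not called. Changes of dim probes depend on the added 50: with 1 added, Gatm changed by 2.77 and Grb10 probe 2 by 2.14.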
